A study of Danio rerio with 8 samples.

Results

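The genes described here build and serve the photoreceptor cilium, and their RNA was compared between retinas of *bbs2* mutant zebrafish and wild-type siblings. The members are the 10 genes of the count table whose symbol is *rp1*, *rp1l1a*, *rp1l1b*, *rpgrip1*, *rpgra*, *rpgrb*, *rp2*, *tulp1a*, *tulp1b* or *eys*, each with 1 identifier, out of 32520 genes in the table. They were chosen by name and function, though with earlier results of these data known. All 10 passed the filter on low counts, which left 17144 genes to be tested. There were 4 libraries of *bbs2* -/- homozygotes and 4 of *bbs2* +/+ siblings, which the authors call biological replicates. All fish came from crosses of heterozygotes, both sexes were used, and all were 6 months old. They were kept in the dark for 16 to 20 hours before death, and each sample held 2 retinas with little pigment epithelium. The loss of *bbs2* concerned the whole animal and not photoreceptors alone, and the labels do not name the mutant allele.

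A photoreceptor outer segment is a modified cilium. Microtubules of its axoneme run up from a connecting cilium, through which every outer segment protein has to pass, and discs are stacked along them. Rp1 and its relatives of the doublecortin family bind the axoneme, Rpgrip1 anchors Rpgr at the connecting cilium, Rp2 inactivates Arl3, a small GTPase that releases lipid-bound cargo at the cilium, and Tulp1 is needed for the transport of opsins. Eys is an extracellular protein found around the photoreceptor cilium. Bbs2 is a subunit of the BBSome, a complex that carries membrane proteins along and out of cilia. Human relatives of these genes are known from inherited retinal degenerations.

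Total counts per library ran from 6279179 to 11496801. The targeted gene *bbs2* was lower in every mutant library than in every wild-type library. It stood at 27.3 to 28.8 CPM (counts scaled to a common library size) in mutants and at 39.8 to 45.5 CPM in wild-type siblings. The 18 cone markers tested summed to 20909 to 22475 CPM in wild-type siblings and to 7179 to 8496 CPM in mutants, and all 18 fell. Their list was fixed with earlier results of these data known, and the authors had reported several of these genes, such as *gnat2* and *gucy2d*, as lower in *bbs2* mutants. Of 13 rod markers 4 rose and 1 fell, with sums of 20895 to 27226 CPM and 23752 to 33393 CPM. Markers of the pigment epithelium rose, all 10 of them, from 74.0 to 194 CPM in sum to 1036 to 1480 CPM, and all 9 tested microglia markers rose, from 58.5 to 82.9 CPM to 251 to 332 CPM. Of 8 lens markers only 1, *cryba4*, passed the filter on low counts, and it stayed at or under 1.91 CPM in all libraries. In bulk retina, fewer cells of a type and less RNA per cell cannot be told apart. The part of pigment epithelium and microglia in the results on the 10 genes was not tested.

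Of the 10 genes, 4 fell in mutants and none rose. *rp1l1b* and *rp1l1a* fell most, to 0.310 and 0.459 times their wild-type level, and *rpgrip1* and *rp2* fell less. *rpgra*, *rpgrb*, *tulp1a*, *tulp1b*, *rp1* and *eys* did not pass the test. The test was the quasi-likelihood F test of edgeR at a false discovery rate of 0.05 over all 17144 genes, of which 13% were called lower and 15.2% higher in mutants (28.1% in either direction). Higher genes made up 54.0% of these calls, and 71.3% with library totals in place of TMM (trimmed mean of M-values) scaling, which moved the median log2 fold change of all genes from -0.01 to 0.09. The same 4 genes were those whose mutant and wild-type libraries did not overlap, beside 29.3% of all tested genes (13.9% wholly lower in mutants and 15.4% wholly higher). The median log2 fold change (log2FC, mutant over wild-type) of the 10 genes was -0.13, with a range from -1.69 to 0.48, against a median of -0.01 over all tested genes.

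**Figure D1:**
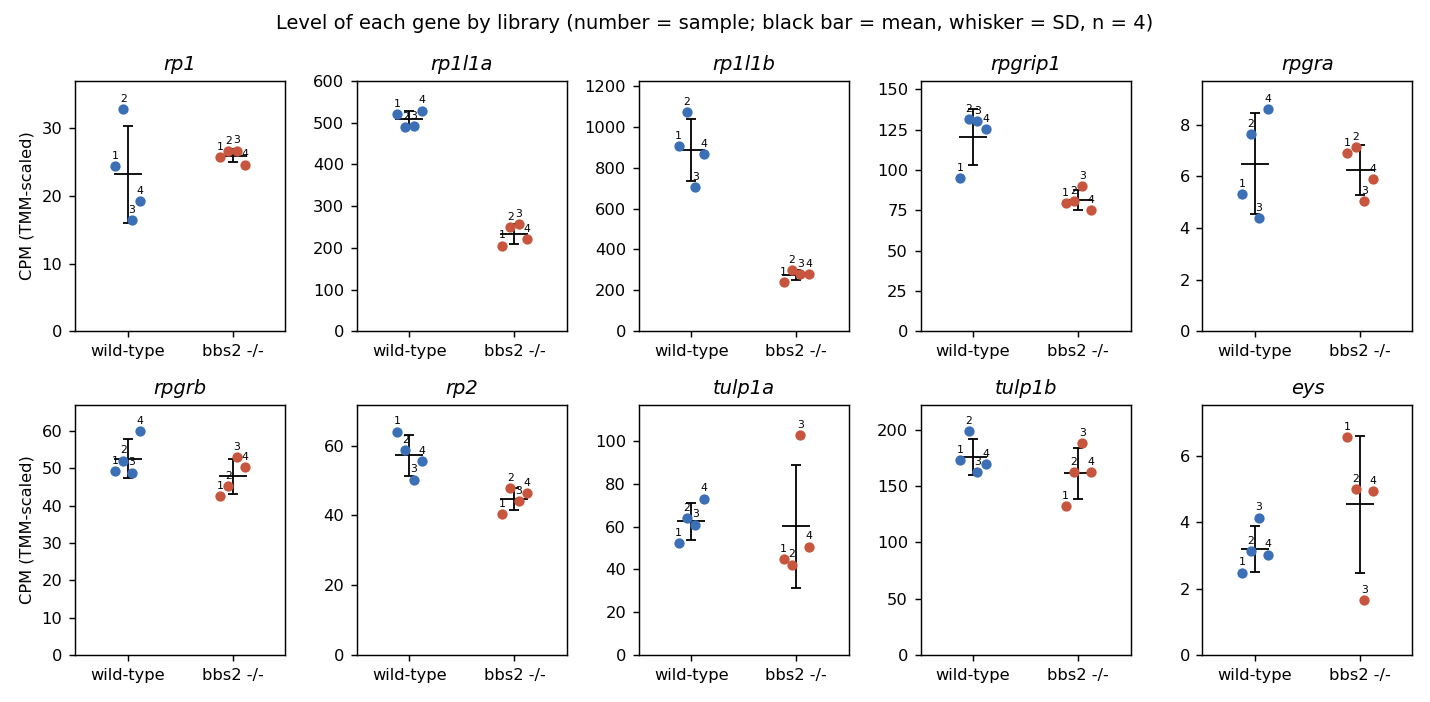
CPM of each of the 10 genes in the 4 wild-type (blue) and 4 *bbs2* -/- (red) libraries, each point a library with its sample number, with the mean and SD. The genotypes are separated for *rp1l1a*, *rp1l1b*, *rpgrip1* and *rp2*, and mutant 3 lies apart for *tulp1a* (103 CPM) and *eys* (1.65 CPM).

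The doublecortin genes *rp1l1a* and *rp1l1b* were the most abundant of the 10 by counts and fell most. *rp1l1b* (ENSDARG00000088377) stood at 906, 1071, 705 and 868 CPM in wild-type libraries 1 to 4 and at 240, 298, 281 and 279.9 CPM in mutant libraries 1 to 4. The lowest wild-type value was 2.37 times the highest mutant value. Its log2FC was -1.69 (SE 0.11, edgeR adjusted p = 3.64e-07), a fold of 0.310, and 86 of the 17144 genes had a lower log2FC. *rp1l1a* (ENSDARG00000089458) stood at 521, 490.1, 491 and 529 CPM in wild-type libraries and at 206, 249.6, 257 and 220.2 CPM in mutants. The wild-type libraries lay close together, with an SD of 3.99% of the mean, and the mutants spread more, with 10.4%. Its log2FC was -1.12 (SE 0.08, edgeR adjusted p = 5.97e-08), a fold of 0.459.

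*rp1* (ENSDARG00000077687), also of the doublecortin family, did not pass the test. In mice its product is needed for ordered disc stacks. It stood at 24.4, 32.8, 16.5 and 19.2 CPM in wild-type libraries and at 25.7, 26.6, 26.7 and 24.6 CPM in mutants. The wild-type values spread on both sides of all 4 mutant values, with an SD of 30.9% of the mean against 3.71% in mutants. The log2FC was 0.16 (SE 0.17, edgeR adjusted p = 0.540), and 2 SE on either side of it span -0.18 to 0.51. Leaving out wild-type 2, the highest library, moved it to 0.38 (edgeR adjusted p = 0.0547), and leaving out wild-type 3, the lowest, to 0.02.

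**Figure D2:**
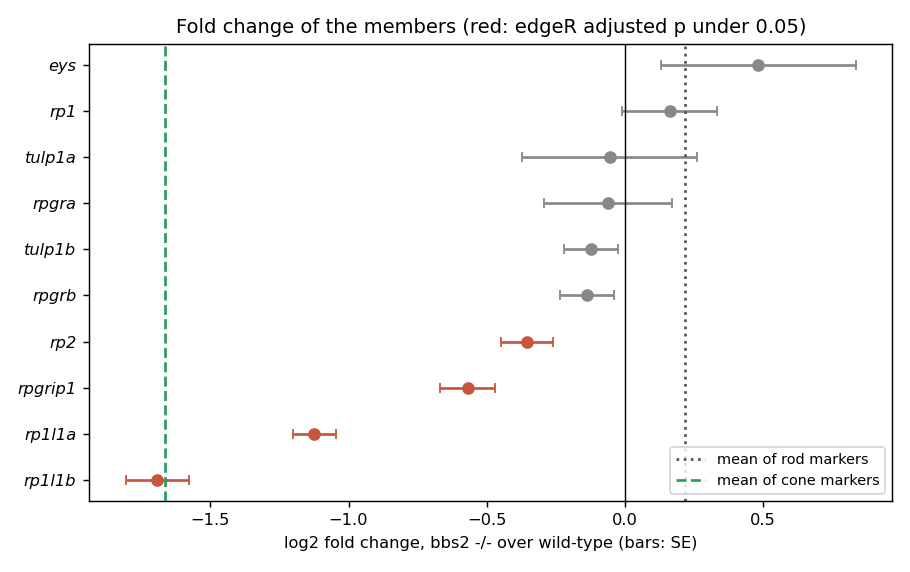
Log2 fold change of the 10 genes, *bbs2* -/- over wild-type, with SE as bars. Red points passed the edgeR test, the dashed line is the difference in the mean log2 CPM of 18 cone markers (-1.66) and the dotted line that of 13 rod markers (0.22).

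At the connecting cilium the scaffold gene fell and its partners did not pass the test. *rpgrip1* (ENSDARG00000076055) stood at 94.8, 131, 130.5 and 125 CPM in wild-type libraries and at 79.2, 80.9, 90.01 and 75.2 CPM in mutants. Wild-type 1 lay well below the other 3 wild-type libraries and only 4.83 CPM above mutant 3, the highest mutant. The log2FC was -0.57 (SE 0.10, edgeR adjusted p = 0.00049), and the call held without any 1 library. *rpgrb* (ENSDARG00000057074), 1 of the copies of the *RPGR* gene, stood at 49.2, 52.04, 48.8 and 60.02 CPM in wild-type libraries and at 42.6, 45.2, 53.05 and 50.3 CPM in mutants. The ranges overlapped, with a log2FC of -0.14 (SE 0.10, edgeR adjusted p = 0.329) and 2 SE on either side spanning -0.33 to 0.06.

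The other copy was scarce. *rpgra* (ENSDARG00000056617) had 32 to 74 counts per library, with 5.31, 7.63, 4.39 and 8.59 CPM in wild-type libraries and 6.89, 7.12, 5.04 and 5.89 CPM in mutants. All 4 mutant values lay within the wild-type range, and the log2FC was -0.06 (SE 0.23, edgeR adjusted p = 0.883). At this depth 2 SE on either side span -0.52 to 0.40, which includes a fall as large as that of *rp2*.

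*rp2* (ENSDARG00000044339), whose product switches off Arl3 after cargo release, stood at 64.0, 58.8, 50.2 and 55.6 CPM in wild-type libraries and at 40.4, 47.7, 44.0 and 46.4 CPM in mutants. The genotypes did not overlap, but wild-type 3 and mutant 2 were only 2.50 CPM apart. The log2FC was -0.35 (SE 0.09, edgeR adjusted p = 0.009). The call ended with library totals in place of TMM scaling, with a log2FC of -0.25 and edgeR adjusted p = 0.0526.

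The copies of *TULP1* did not pass the test, and 1 library set the spread of one of them. *tulp1b* (ENSDARG00000078210) stood at 173, 199, 162 and 169 CPM in wild-type libraries and at 132, 162, 188 and 162 CPM in mutants. Mutant 3 was above 3 of the wild-type libraries and mutant 1 was below all of them, and the log2FC was -0.12 (SE 0.10, edgeR adjusted p = 0.390). *tulp1a* (ENSDARG00000075295) stood at 52.2, 64.2, 61.0 and 73.2 CPM in wild-type libraries and at 44.7, 42.3, 103 and 50.7 CPM in mutants. Of the mutants 3 lay below every wild-type library, while mutant 3 lay above all of them at 2.24 times the mean of the other mutants. The log2FC was -0.05 (SE 0.32, edgeR adjusted p = 0.927) with all 8 libraries. Each library was left out in turn. Without mutant 3 the log2FC was -0.44 and passed the test (edgeR adjusted p = 0.00887). Without mutant 1, 2 or 4 it was 0.065, 0.084 and 0.017, and no fit but that without mutant 3 passed. The call thus rests on leaving out the 1 library that lay apart.

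*eys* (ENSDARG00000079519) had the highest log2FC of the 10 genes and the fewest counts, 15 to 64 per library. It stood at 2.49, 3.13, 4.15 and 3.03 CPM in wild-type libraries and at 6.58, 5.01, 1.65 and 4.95 CPM in mutants. Again 3 mutants lay on one side of all wild-type libraries, here above, and mutant 3 lay below all of them at 0.300 times the mean of the other mutants. The log2FC was 0.48 (SE 0.35, edgeR adjusted p = 0.346), and without mutant 3 it was 0.79 (edgeR adjusted p = 0.0384). Without mutant 1, 2 or 4 it was 0.24, 0.43 and 0.44, and of the fits without 1 library only that without mutant 3 passed. The 19 counts of mutant 3 have an exact 95% Poisson interval of 0.995 to 2.58 CPM, and those of mutant 1, with 64 counts, 5.07 to 8.41 CPM, which cover counting error only. The interval of wild-type 3 (2.87 to 5.79 CPM) overlapped those of mutant 1, mutant 2 (3.74 to 6.56 CPM) and mutant 4 (3.49 to 6.82 CPM). That of wild-type 1 (1.39 to 4.10 CPM) overlapped that of mutant 3. Counting error alone is thus wide enough to blur this order of the libraries.

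By the share of genes that differed more than 2-fold, mutant 3 was not far from the other mutants. There 292 of the tested genes (1.70%) differed more than 2-fold from the mean of the other mutants, against 1.63 to 2.13% in mutants 1, 2 and 4 and 3.22 to 4.29% in wild-type libraries. Of the 10 genes only *tulp1a* and *eys* did so in mutant 3. Rod markers had their highest mean level there, 9.60 on the log2 CPM scale, next to 9.58 in mutant 2, 9.37 in mutant 4 and 9.08 in mutant 1. Markers of the pigment epithelium had their lowest sum among the mutants in mutant 3 (1036 CPM, against 1411 to 1480 CPM in the others). The same held for the microglia markers (251 CPM, against 296 to 332 CPM). Mutant 3 was also the library with the most counts (11496801). The part of these differences in the values of *tulp1a* and *eys* was not tested.

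The table holds further identifiers for *eys* and *TULP1* that the rule did not take. Another identifier, listed in the count table as the clone CT027676.1 (ENSDARG00000106564), carries the symbol *eys* in the reference table of gene names. It stood at 6.13, 5.50, 5.85 and 8.34 CPM in wild-type libraries and at 7.82, 7.03, 4.61 and 8.29 CPM in mutants, and here too mutant 3 had the lowest value. Its log2FC was 0.09 (edgeR adjusted p = 0.808). With the counts of both identifiers added together, a step chosen after the values were seen, the log2FC of *eys* was 0.24 (edgeR adjusted p = 0.484), with 8.62 to 11.4 CPM in wild-type libraries and 14.4, 12.03, 6.26 and 13.2 CPM in mutants 1 to 4. One more *TULP1* identifier, in capitals as TULP1 (ENSDARG00000100478), stood at 31.0 to 39.8 CPM in wild-type libraries and at 23.3, 24.4, 14.5 and 35.7 CPM in mutants. Its mutant 3 was the lowest library, the reverse of *tulp1a*, and its log2FC was -0.56 (edgeR adjusted p = 0.112).

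Levels of different genes were compared in the deposited TPM (transcript abundance scaled for gene length and library size). In wild-type siblings *tulp1b* led with 149 ± 15.2 TPM (SD, n = 4), followed by *rp1l1b* (133 ± 22.7), *rp1l1a* (91.8 ± 1.05), *rp1* (55.0 ± 17.5), *rpgrip1* (45.6 ± 7.38) and *rp2* (35.6 ± 3.18). *tulp1a* (21.0 ± 2.73), *rpgrb* (18.1 ± 1.40), *eys* (8.45 ± 2.08) and *rpgra* (2.32 ± 0.663) were lower. Neighbours whose libraries overlapped in this order were *tulp1b* with *rp1l1b*, *rp1* with *rpgrip1*, *rpgrip1* with *rp2*, and *tulp1a* with *rpgrb*. In mutants *rp1* (62.3 ± 4.98 TPM) came after *tulp1b* (138 ± 7.78) and above *rp1l1a* (42.6 ± 1.44) and *rp1l1b* (41.7 ± 2.55), whose libraries overlapped each other and not those of *rp1*. This place of *rp1* depends on the length of its gene model, as by CPM it stayed below both in mutants (25.9 against 233 and 275). The summed TPM of the 10 genes was 560.4 ± 56.6 in wild-type fish and 396 ± 3.53 in mutants (exact two-sided permutation test, p = 0.0286, the lowest possible with 4 libraries a group). *rp1l1b* took 23.6 ± 1.88% of this sum in wild-type siblings and 10.5 ± 0.673% in mutants, and *tulp1b* 26.7 ± 0.599% and 34.9 ± 2.11%. Most of the difference in the sum lay in *rp1l1b* and *rp1l1a*. The share of *tulp1b* was larger in mutants because the sum was smaller, as its own mean TPM was not higher there (138 against 149).

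The gene models behind these TPM differ in length. Counts per TPM, which scale with the length used, were 0.0570 times those of *rp1l1b* for *eys* and 0.0634 times for *rp1*, against 0.176 times for *tulp1b*, the next lowest, and 0.397 times for *rpgrip1*. The models of *eys* and *rp1* in this table are thus the shortest of the 10, although the human EYS and RP1 proteins are large. A model that covers part of a gene counts only the reads of that part, and TPM of *eys* and *rp1* are uncertain for that reason.

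**Figure D3:**
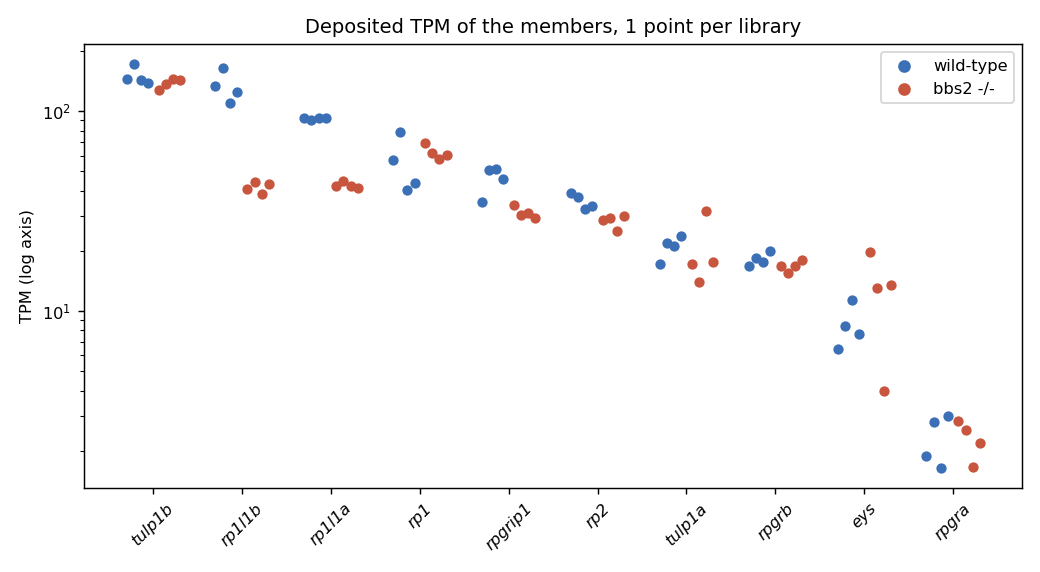
Deposited TPM of the 10 genes on a log axis, 1 point per library, in the order of the wild-type mean. *rp1l1b* and *rp1l1a* dropped from 133 and 91.8 TPM to 41.7 and 42.6 TPM, below *rp1* (62.3 TPM in mutants). The gene model of *rp1* is short and its TPM uncertain, and by CPM both genes stayed above *rp1* in mutants (275 and 233 against 25.9).

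Gene copies were then compared within each library, a measure that does not depend on the scaling between libraries. *rp1l1b* stood at 1.44, 1.81, 1.19 and 1.36 times the TPM of *rp1l1a* in wild-type libraries 1 to 4 and at 0.971, 0.990, 0.905 and 1.05 times in mutants 1 to 4. All 4 mutant ratios lay below all 4 wild-type ratios, a difference of -0.55 in the log2 ratio. By an exact two-sided permutation test p was again 0.0286, the lowest possible. Adjusted over the 3 pairs p was 0.0857, so the difference did not pass the correction. Given the p of the other pairs, the adjusted p could not have been lower at any size of difference. The correction therefore cannot decide whether this ratio differs. *rpgrb* stood at 6.56 to 10.7 times the TPM of *rpgra* in wild-type libraries and 5.94 to 10.1 times in mutants (difference -0.12 in log2, exact permutation p = 0.657). *tulp1b* stood at 5.85 to 8.37 times the TPM of *tulp1a* in wild-type libraries and at 7.48, 9.72, 4.62 and 8.10 times in mutants (difference 0.02, exact permutation p = 0.971). Reads that fit both copies may have been divided or dropped in counting, which was not examined.

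**Figure D4:**
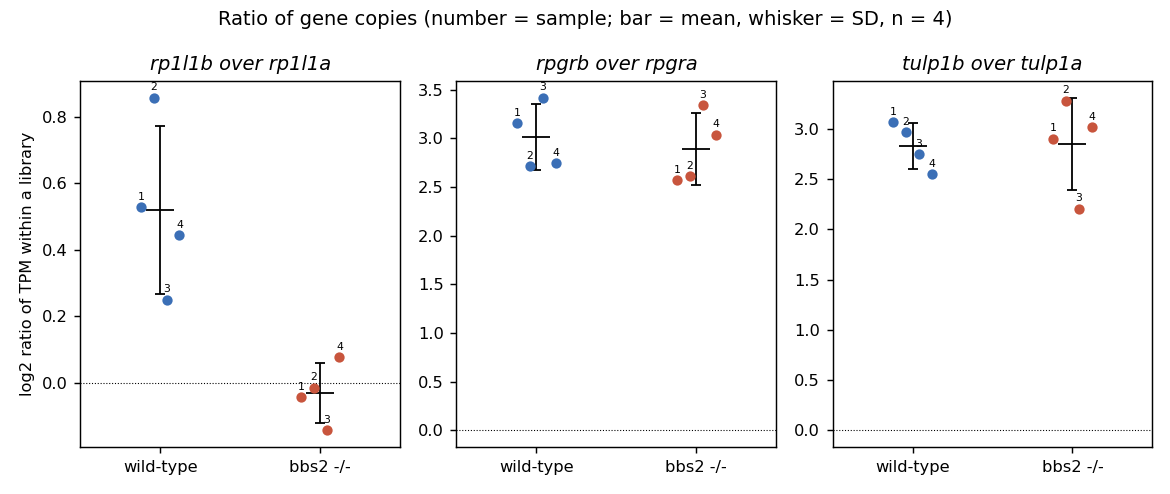
Log2 ratio of TPM of the gene copies within each library, with sample numbers, mean and SD. For *rp1l1b* over *rp1l1a* the 4 mutants lie between -0.14 and 0.08 and the wild-type libraries between 0.25 and 0.86, while the other ratios overlap.

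Each gene was also set against rod and cone markers in its own library, as its log2 CPM minus the mean log2 CPM of the 13 rod or 18 cone markers. The mean of the cone markers fell by 1.66 in mutants on the log2 scale, with 9.56 to 9.73 in wild-type libraries and 7.85 to 8.06 in mutants. That of the rod markers was higher by 0.22, with 9.10 to 9.29 and 9.08 to 9.60 (exact permutation p = 0.171). Relative to the cone markers *rp1l1b* stood at 0.14 ± 0.19 in wild-type fish and at 0.13 ± 0.16 in mutants (difference -0.02, exact permutation p = 0.943). *rp1l1a* fell less than the mean of the cone markers, and its distance to it went from -0.65 ± 0.11 to -0.11 ± 0.17 (difference 0.54, exact permutation p = 0.0286, adjusted p = 0.0381 over the 20 comparisons of 10 genes with both lists). The cone markers themselves spread widely, with log2FC from -3.08 to -0.87, and both genes lie within that range. Of the 18 markers 3 fell less than *rp1l1a* and 11 fell less than *rp1l1b*. Relative to the rod markers *rp1l1b* differed by -1.90 and *rp1l1a* by -1.35 (exact permutation p = 0.0286 and adjusted p = 0.0381 for each).

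The other 8 genes were higher relative to the cone markers in all mutant libraries than in all wild-type libraries, by 1.11 for *rpgrip1* to 2.02 for *eys*, each at an adjusted p of 0.0381 in the exact permutation test. As the mean of the cone markers itself fell by 1.66, a gene at a steady level would be higher on this measure too. These 8 results largely restate the fall of the cone markers. Relative to the rod markers the difference was -0.77 for *rpgrip1*, -0.57 for *rp2*, -0.35 for *rpgrb* and -0.35 for *tulp1b*. Each had no overlap between genotypes and the same adjusted p in the exact permutation test. As the mean of the rod markers was itself higher by 0.22 in mutants, a gene at a steady level would be lower on this measure. The log2FC of *rpgrb* and *tulp1b* themselves was -0.14 and -0.12, and neither passed the edgeR test. *rp1* stood at -4.69 ± 0.45 relative to the rod markers in wild-type fish and at -4.70 ± 0.22 in mutants (difference -0.01, exact permutation p = 0.971). The rod markers did not move as 1 group. *nr2e3*, a nuclear receptor gene of rods, rose most (log2FC 1.77), and without it, a step chosen after the values were seen, the rod mean differed by 0.089 in place of 0.22. The results of *rpgrip1* and *rpgrb* relative to the rod markers then no longer passed (differences -0.65 and -0.22, adjusted p = 0.0816 and 0.190 in the exact permutation test). They did not pass with the median of the markers either (-0.60 and -0.17, adjusted p = 0.0816 and 0.464 in the exact permutation test). Without any 1 mutant library *rpgrip1* differed from the rod markers by -0.87 to -0.72 and *rpgrb* by -0.41 to -0.27, and without wild-type 2, 3 or 4 *rpgrb* by -0.36 to -0.31, and none of these passed. The result of *eys* with the cone markers did not pass without any 1 wild-type library (1.91 to 2.16). The results of *rp1l1b*, *rp1l1a*, *rp2* and *tulp1b* with the rod markers passed with the median and without *nr2e3*. In both cases passing rested on the cone comparisons in the same adjustment, most of which restate the fall of the cone markers. An adjustment over the rod comparisons alone was not run. The difference of *rp1* relative to the rod markers turned to 0.17 with the median and to 0.12 without *nr2e3*.

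For *rpgra*, *tulp1a* and *eys* the genotypes overlapped relative to the rod markers, with differences of -0.23, -0.37 and 0.14. The marker lists were fixed with earlier results of these data known.

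**Figure D5:**
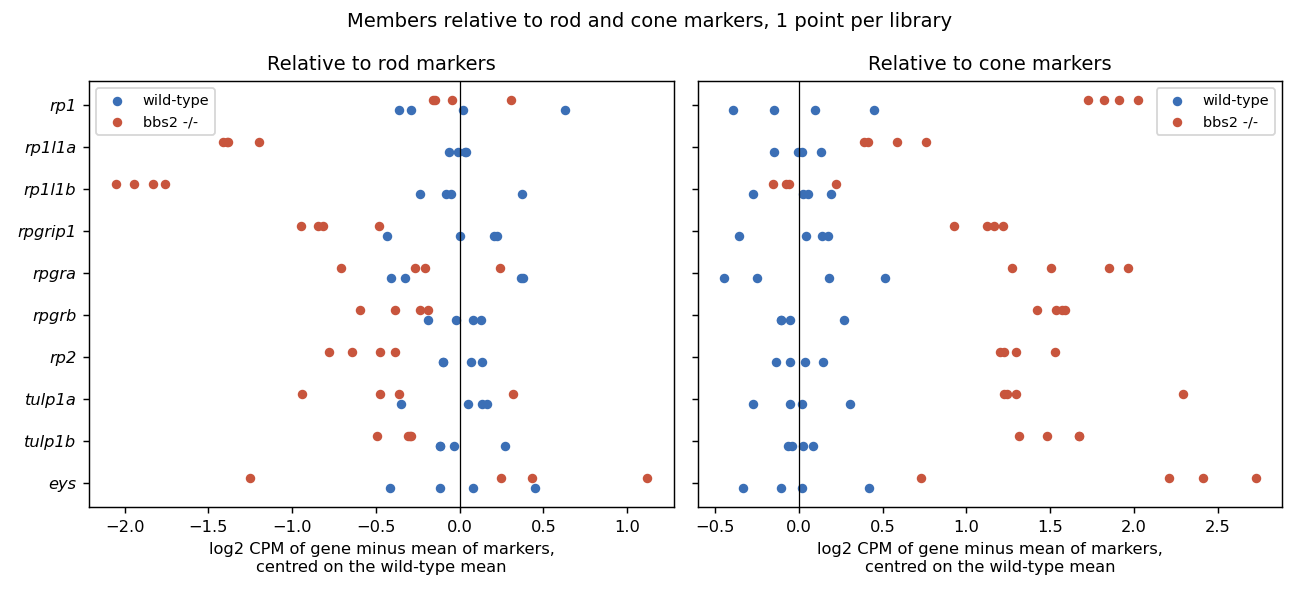
Log2 CPM of each gene minus the mean log2 CPM of rod markers (left) or cone markers (right), centred on the wild-type mean, 1 point per library. On the cone side *rp1l1b* is the 1 gene whose genotypes overlap (difference -0.02), and on the rod side those of *rp1*, *rpgra*, *tulp1a* and *eys* overlap.

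Genes whose pattern over the 8 libraries was most like that of each member were found by the mean absolute difference of log2 CPM. Each gene was centred on its own mean. Only tested genes with a gene name were searched, and provisional or clone symbols, such as CT027676.1, were left out. Nearest to *rp1l1b* were *sema7a* (0.07), *mn1a* (0.11) and *gucy2d* (0.11), the last of which encodes a cone guanylate cyclase and is also in the cone marker list. The libraries of *rp1l1b* itself deviated from their mean by 0.84 on this measure. Nearest to *rp1l1a* were *frmpd1a* (0.05), SAMD4B (0.07) and *cdk5r2b* (0.08). *rp2* was nearest to *espn* (0.04), which encodes an actin-bundling protein, then to *chpfa* and *gramd1ba* (0.05 each). *tulp1b* was nearest to *bace1* (0.04), *whrna* (0.05), a copy of the Usher syndrome gene *WHRN*, and *schip1* (0.06). The nearest gene was *smim29* for *rp1* (0.07), *tmsb1* for *rpgrip1* (0.07), *trpc4a* for *rpgra* (0.07) and *nrd1b* for *rpgrb* (0.03). Whether near genes share a function with a member was not tested. No gene among those searched came as near to *tulp1a* and *eys*, with 0.14 for *gpr61* and 0.23 for *arhgap42a* as the smallest values. The libraries of *tulp1a* and *eys* themselves deviated more from their means, by 0.32 and 0.48, than those of *tulp1b*, by 0.12. Distances to genes of unlike spread are therefore not on 1 scale.

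Around the members, 84 other genes of the same structures and routes were tested, from 5 lists, of which 6 rose and 13 fell with a median log2FC of -0.04. Of 16 genes of the axoneme and the base of the discs 1 rose and 3 fell. *prom1b*, which encodes a prominin of the disc rims, rose from 361 to 411 CPM in wild-type libraries to 749.7 to 838 CPM in mutants (log2FC 1.01, SE 0.07, edgeR adjusted p = 4.07e-08). The doublecortin-like kinase gene *dclk1a* (-0.49), *fam161a* of the inner wall of the connecting cilium (-0.63) and *lca5*, which encodes lebercilin (-0.58), fell (edgeR adjusted p = 7.76e-05, 0.000109 and 0.00053). The 4 values of each of these genes in mutants lay apart from the wild-type values.

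Of 22 genes of the connecting cilium and the partners of Rpgr, 2 rose and 2 fell. *ush1c*, which encodes harmonin, was among those that rose (0.60), and those that fell are *whrnb*, the other copy of *WHRN* (-0.40), and the Joubert syndrome gene *ahi1* (-0.53), with edgeR adjusted p of 0.00849, 0.000522 and 0.000795. Of 21 genes around Rp2, Arl3 and lipid-bound cargo, 1 rose and 4 fell. *unc119b*, whose product carries myristoylated cargo, went from 141 to 182 CPM in wild-type libraries to 103.6 to 121 CPM in mutants (log2FC -0.54, edgeR adjusted p = 0.000167). The other 3 that fell are cargo genes of cones, *gnat2* (-1.58) and *gnb3b* (-0.70) of cone transducin and the opsin kinase gene *grk7a* (-1.14). Of these, *gnat2* and *grk7a* are also in the cone marker list and were counted there too. *arl13a* rose (0.29, edgeR adjusted p = 0.0326) although its libraries overlapped.

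Of the 3 other genes of the tubby family tested, *tub* (log2FC -0.35) and *tulp4b* (-0.40) fell (edgeR adjusted p = 0.00385 and 0.00661). Of 23 identifiers around Eys, the Crumbs proteins and the sugar chain of dystroglycan, 2 rose and 2 fell. Both that rose carry the symbol *impg2b*, a proteoglycan of the matrix between photoreceptors (1.297 and 1.17). *dag1*, which encodes dystroglycan (-0.29), and *impg1b* (-0.56) fell, the latter with an overlap between genotypes. Over the 84 genes together 15.5% fell and 7.14% rose, beside 13% and 15.2% of all tested genes.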

How the data were processed

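The authors mapped paired reads of ribosome-depleted, stranded libraries to GRCz11 (Ensembl genes) with STAR and deposited raw counts per gene. The deposited TPM come with no named tool, and no strand setting is stated for the counts, so overlapping genes are uncertain. A normalized copy of the counts and the authors' comparison table (fold changes, p-values and FDR from DESeq2 1.30.1) were not used.

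Counts were tested in R 4.3.3 with edgeR 4.0.16 (quasi-likelihood, robust, TMM, filter at a minimum count of 10, genotype as the only term, Benjamini-Hochberg FDR 0.05). CPM and log2 CPM (prior count 2) were computed from the counts after TMM, and SE is the log2FC divided by the root of the F statistic. Single values per library were compared by exact two-sided permutation over samples (smallest p 0.0286). On data simulated for this comparison (17021 genes) 16.9% of genes with a log2FC of 0.5 were called, 71.6% at 1 and 97.0% at 2, and 17 of 16822 unchanged genes. Only 65 to 67 genes were changed at each size there, while 28.1% of all tested genes were called in the real data. The correction was thus stricter in the simulation, and its rates do not carry over to the real data. No 2 libraries of a genotype were alike within counting noise (chi-square per degree of freedom 5.71 to 12.3).

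Alternatives were DESeq2 1.42.0, other scalings, no filter, limma 3.58.1 on log2 TPM with 1 or 0.1 added, thinned counts, the replicate number as a block and each library left out. The members, lists and tests were chosen with earlier results of these data known. Named were all members, *bbs2*, up to 3 called genes per direction of each pathway list by smallest p (*unc119b* was added after its value was seen) and the nearest genes by pattern. One gene that this rule names is not reported here.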

Additional observations from a re-analysis of the deposited data

Results flagged for a closer look

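In 2 of the 26 groups of 4 libraries examined, 1 library lay far from the other 3 for its distance to them, where chance flags about 1 in 20 groups. *tulp1a* stood at 102.9 CPM in mutant 3 and at 42.3 to 50.7 CPM in the other mutants. *rpgrip1* stood at 94.8 CPM in wild-type 1 and at 125 to 131 CPM in the other wild-type libraries. Both libraries were kept, and the call of *rpgrip1* held without wild-type 1, while that of *tulp1a* arose without mutant 3 (log2FC -0.44, edgeR adjusted p = 0.00887).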

How the results depend on the processing

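*rp1l1b*, *rp1l1a* and *rpgrip1* kept their direction and their call under all 16 alternatives (largest adjusted p = 0.0068), and *rp1*, *rpgrb* and *tulp1b* stayed uncalled with their direction under all 16. With library totals in place of TMM, *rp2* lost its call (-0.25, adjusted p = 0.0526), *rpgra* turned to 0.044 and *tulp1a* to 0.037, and 1335 genes were called lower in place of 2221. With limma on log2 TPM 1427 genes were called lower (1 added) and 1410 (0.1 added), and *rpgra* was at 0.0026 (0.1 added). Leaving out 1 library at a time, the log2FC of *rpgra* ran from -0.22 to 0.10, of *tulp1a* from -0.44 to 0.084 and of *eys* from 0.24 to 0.79, and 0 to 1 members were called higher (*eys*, without mutant 3). In the same way the log2 ratio of *rpgrb* to *rpgra* differed by -0.27 to 0.017, that of *tulp1b* to *tulp1a* by -0.12 to 0.24, and that of *rp1l1b* to *rp1l1a* by -0.64 to -0.44. Of the 20 comparisons with marker lists 15 passed, and 13 to 15 over their alternatives: leaving out any 1 mutant ended those of *rpgrip1* and *rpgrb* with the rod markers, any 1 wild-type library that of *eys* with the cone markers, and wild-type 2, 3 or 4 also that of *rpgrb* with the rod markers (adjusted p from 0.0714 to 0.0762). All 15 had the lowest possible p of the exact permutation test (0.0286) and shared 1 adjusted p (0.0381). They are not 15 separate results, as most of those with the cone markers restate the fall of these markers. The label numbers did not pair the libraries: deviations of same-numbered libraries correlated at 0.06, -0.07, 0.06 and 0.06, and not every library was nearest to its own number. With the replicate block 4759 genes were called in place of 4824, and 4 members, all lower, with no member's call changed. The cause of these changes was not tested. Counts of *eys* (15 to 64) and *rpgra* (32 to 74) limit what can be seen of these genes.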
